A study of Mus musculus with 24 samples.

Results

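Expression of the *Snurf*-*Snrpn* imprinted domain was followed through 4 genes, *Snurf*, *Snrpn*, *Ndn* and *Ube3a*, which were found by symbol among the 49452 genes of an RNA-Seq table. All 4 had 1 row in the table and passed the filter on low values in every comparison. The table held 24 libraries of primary stromal vascular fraction (SVF) cells, the precursor-containing fraction of adipose tissue, from male C57BL/6 mice of 6 to 8 weeks. Cells came from brown adipose tissue (BAT) or from epididymal, visceral white adipose tissue (vWAT), received a non-targeting siRNA (siCtrl) or an siRNA against *H19* (siH19) by nucleofection, and were harvested before induction (d0) or on day 3 of differentiation (d3), which gave 8 groups with n = 3 libraries each. No group carried a transgene or a deletion, and all 24 libraries had received an siRNA. The BAT and vWAT media differed after induction, with triiodothyronine for BAT and rosiglitazone for vWAT, while the sources differ on whether the insulin, dexamethasone, rosiglitazone and IBMX mix of the induction step was given to BAT cells as well. The libraries of each depot formed a series of their own, so depot, medium and library series cannot be told apart. BAT tissue was pooled between animals where cell numbers required it, and the labels do not say whether the 3 libraries of a group came from separate animals, so the p-values measure the spread between these libraries, which may be technical.

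Genomic imprinting silences 1 parental copy of a gene. In the mouse, *Snurf*, *Snrpn* and *Ndn* are transcribed from the paternal chromosome under an imprinting centre at the *Snurf*-*Snrpn* promoter, whereas *Ube3a* is maternally expressed in neurons, where the paternal antisense transcript *Snhg14* runs across it, and is transcribed from both copies in most other cells. The matching human region is the one lost in Prader-Willi and Angelman syndromes, the former of which brings obesity. *Snrpn* encodes SmN, a core protein of spliceosomal small nuclear ribonucleoproteins, and *Snurf* a small basic protein read from the upstream frame of the same transcript. *Ndn* encodes necdin, a MAGE family protein known to restrain proliferation and adipogenesis of precursors, and *Ube3a* a HECT-type E3 ubiquitin ligase. *H19*, the maternally expressed non-coding RNA that was silenced here, belongs to another imprinted domain of the same chromosome, and the comparison of siH19 with siCtrl addresses whether its loss changes other imprinted genes. The values carry no allelic information.

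The values were FPKM, which divide the fragments of a gene by the length of its transcript and by the sequencing depth, and between 12311 and 13125 genes reached an FPKM of 1 per library. The counts behind them are not in the table, so the absolute depth is unknown. The spacing of the low values gave a relative depth between 0.841 and 1.00 for the BAT and between 1.04 and 1.19 for the vWAT libraries, relative to the first BAT library. The knockdown was visible in every siH19 group: *H19* averaged 130 ± 27.1 FPKM (SD, n = 3) in BAT siCtrl at d0 against 4.36 ± 1.33 in BAT siH19, and 89.8 ± 8.76 against 13.7 ± 2.79 at d3. In vWAT, *H19* averaged 11.7 ± 0.528 FPKM in siCtrl against 1.21 ± 0.566 in siH19 at d0, and 8.59 ± 0.361 against 0.528 ± 0.380 at d3. Precursor markers (*Pdgfra*, *Pdgfrb*, *Ly6a*, *Cd34*) and adipocyte markers were detected in all 24 libraries. Of the neuronal markers, *Rbfox3* never exceeded 0.0738 FPKM and was at 0 in 14 libraries, *Syt1* stayed at or below 0.144 FPKM and was at 0 in 17, and *Snap25* reached 1.63 FPKM and was at 0 in 4. Their sum was at most 0.221 FPKM in the d0 libraries and between 0.280 and 1.63 FPKM in the d3 libraries, and its part in the day effects was not tested.

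All members lie on chromosome 7 (GRCm38). *Ube3a* (ENSMUSG00000025326) spans chr7:59228750-59311536 on the plus strand, and its end overlaps that of the antisense gene *Snhg14* (chr7:59307924-59975759) by 3613 bases. *Snrpn* (ENSMUSG00000102252, chr7:59982495-60140219) and *Snurf* (ENSMUSG00000102627, chr7:59995449-60005049) lie on the minus strand. *Ndn* (ENSMUSG00000033585, chr7:62346569-62350262) starts 2341520 bases from the start of *Snurf* and has 1 exon. The annotated *Snurf* transcript holds only the coding sequence, 216 bases in 3 exons, and all of it lies within the exons of *Snrpn*, at positions 63 to 278 of the 1932-base transcript Snrpn-201. The sequence is printed because it sets how far the expression of both genes can be separated: the capitals mark the 206 bases that the other transcript, Snrpn-202, holds as well.
Snurf-201: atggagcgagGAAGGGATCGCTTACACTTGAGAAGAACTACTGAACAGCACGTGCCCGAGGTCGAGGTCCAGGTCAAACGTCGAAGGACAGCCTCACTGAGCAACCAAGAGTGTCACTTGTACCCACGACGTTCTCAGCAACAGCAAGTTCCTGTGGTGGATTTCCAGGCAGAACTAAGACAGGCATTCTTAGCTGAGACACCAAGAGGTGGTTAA
Every base of *Snurf* is therefore also a base of *Snrpn*, and the share of reads that each gene received was set by the estimation of the authors' software. The summed FPKM of both genes is given beside each of them for that reason. *Snurf* made up 86.4% to 93.2% of this sum over the 24 libraries, with a median of 89.4%. The sum therefore mostly follows *Snurf* and does not undo the split of reads.

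The RefSeq promoter windows (GRCm38.p6) each hold 300 bases from upstream of the RefSeq start to just past it. They are shown because *Snurf* and *Snrpn* share a RefSeq start whereas *Ndn* and *Ube3a* have starts of their own. The starts of *Snurf*, *Snrpn* and *Ndn* differ from those of the annotation given above. The *Ndn* window lies within the annotated exon (chr7:62346569-62350262). The *Snurf* and *Snrpn* window ends upstream of the annotated start of Snrpn-201 at 60005111. Motif and CG counts therefore hold for the RefSeq windows only. Capitals mark GCATGCG or AAGATGGC on either strand. GCATGCG was looked for after the sequences had been seen.
Snurf and Snrpn, chr7:60005150-60005449, minus strand: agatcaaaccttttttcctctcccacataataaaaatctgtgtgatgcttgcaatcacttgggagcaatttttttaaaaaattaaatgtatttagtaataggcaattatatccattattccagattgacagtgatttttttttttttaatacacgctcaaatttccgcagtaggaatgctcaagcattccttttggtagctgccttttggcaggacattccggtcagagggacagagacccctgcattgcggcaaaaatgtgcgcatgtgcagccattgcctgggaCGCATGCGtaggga
Ndn, chr7:62348027-62348326, plus strand: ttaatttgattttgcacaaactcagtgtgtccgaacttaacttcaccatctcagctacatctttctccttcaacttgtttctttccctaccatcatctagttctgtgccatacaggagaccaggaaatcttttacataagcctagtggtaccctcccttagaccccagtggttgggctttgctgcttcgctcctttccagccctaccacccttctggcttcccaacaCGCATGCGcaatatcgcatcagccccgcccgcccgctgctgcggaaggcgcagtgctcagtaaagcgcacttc
Ube3a, chr7:59228500-59228799, plus strand: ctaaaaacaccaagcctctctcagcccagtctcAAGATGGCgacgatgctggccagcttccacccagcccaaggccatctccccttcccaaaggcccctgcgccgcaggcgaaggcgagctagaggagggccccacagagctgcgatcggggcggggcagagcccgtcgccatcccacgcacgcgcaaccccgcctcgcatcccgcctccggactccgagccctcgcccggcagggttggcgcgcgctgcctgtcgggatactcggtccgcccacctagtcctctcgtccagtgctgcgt
GCATGCG stood in the shared *Snurf* and *Snrpn* window and in that of *Ndn*, in both as part of the palindrome CGCATGCG, and in 3.57% of all 32817 windows of this length. The *Ube3a* window did not hold it but held AAGATGGC, which was found in 2.74% of all windows. A cAMP response element (TGACGTCA) and a nuclear receptor core motif (AGGTCA) were in none of these 3 windows, against 1.79% and 16.3% of all windows. The *Ube3a* window had 29 CG dinucleotides, more than 87.1% of windows, the *Ndn* window 11 and the *Snurf* and *Snrpn* window 7, which was the median of all windows.

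*Snurf* and *Snrpn* rose together from d0 to d3 in both depots and under both siRNAs, whereas *Ndn* fell and *Ube3a* rose in BAT alone among the called changes. A gene was called when limma on log2(FPKM + 1) gave an adjusted p under 0.05 over all genes tested and a change of at least 1.3-fold. In BAT siCtrl, *Snurf* stood at 34.6, 37.6 and 35.0 FPKM at d0 and at 132, 146 and 157 FPKM at d3. The d3 libraries lay far above the d0 libraries with no overlap, at means of 35.7 ± 1.63 and 145 ± 12.6 FPKM. The change was 1.99 ± 0.07 (SE) on the log2 scale (adjusted p = 6.3e-07). *Snrpn*, at 3.60, 4.27 and 4.06 FPKM before induction, reached 17.9, 20.0 and 19.2 FPKM at d3, a change of 2.01 ± 0.08 (adjusted p = 1.1e-06). The sum of both rose by 2.02 ± 0.07 (adjusted p = 5.1e-07), from a mean of 39.7 to 164 FPKM.

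**Figure D1:**
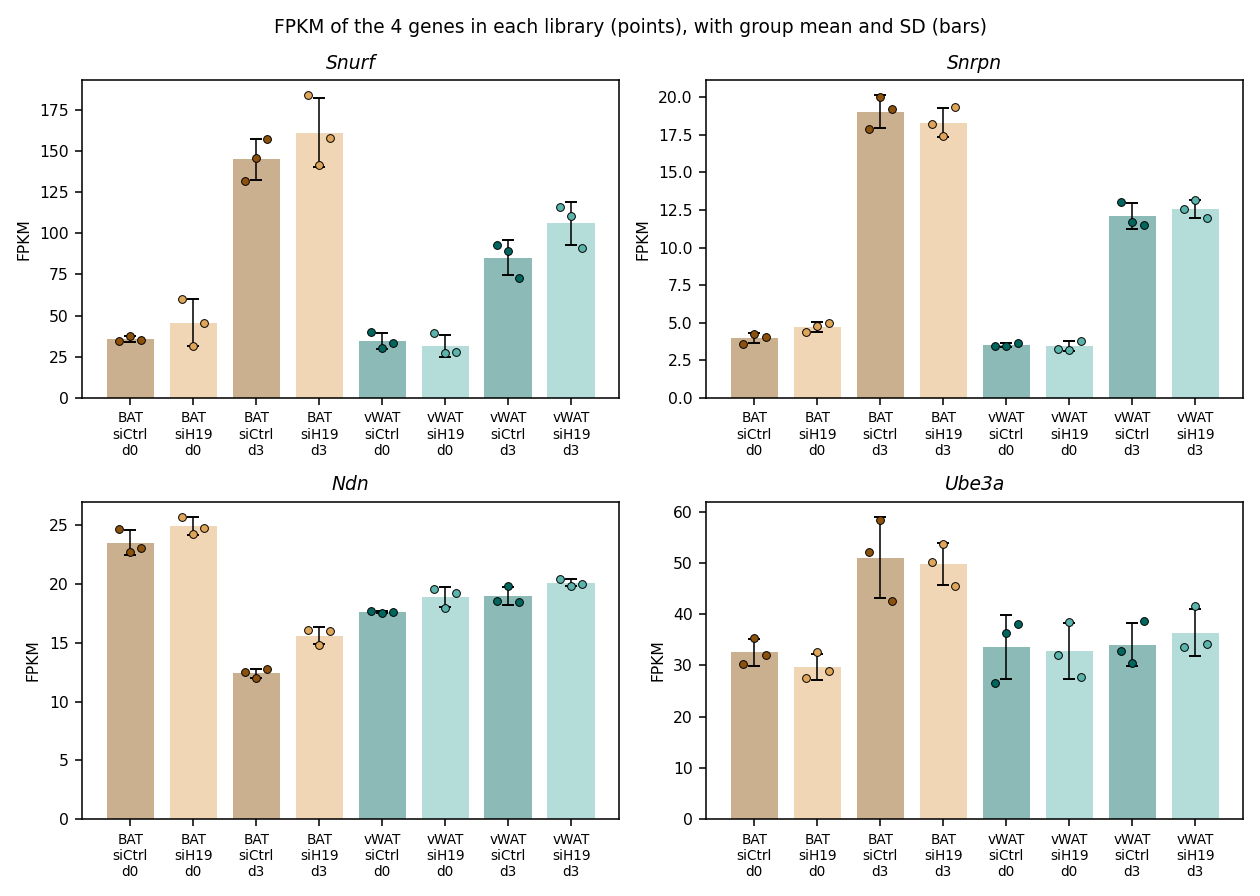
FPKM of *Snurf*, *Snrpn*, *Ndn* and *Ube3a* in each of the 24 libraries, with 1 point per library and the mean ± SD of the 3 libraries of each group. *Snurf* and *Snrpn* were higher at d3 than at d0 in every depot and siRNA group, *Ndn* was lowest in BAT siCtrl at d3 (12.01 to 12.8 FPKM), and *Ube3a* was highest in BAT at d3.

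In BAT siH19, *Snurf* was measured at 59.9, 31.7 and 45.4 FPKM at d0 and at 184, 142 and 158 FPKM at d3. The d0 libraries of this group had a larger SD than those of siCtrl (14.1 against 1.63 FPKM), yet none reached a d3 library. The change was 1.84 ± 0.22 (adjusted p = 2.8e-04). *Snrpn* went from 4.39, 4.75 and 4.99 FPKM to 18.2, 17.4 and 19.4 FPKM, with tight replicates in both groups and a change of 1.76 ± 0.08 (adjusted p = 1.7e-06). The summed FPKM rose by 1.84 ± 0.20 (adjusted p = 1.6e-04).

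In vWAT siCtrl, the *Snurf* libraries at d0 had 40.0, 30.2 and 33.0 FPKM, and those at d3 had 92.9, 89.6 and 73.0 FPKM. The groups did not overlap, and the rise of 1.28 ± 0.13 (adjusted p = 1.6e-04) was smaller than that in BAT. *Snrpn* was at 3.44, 3.46 and 3.63 FPKM and then at 13.1, 11.7 and 11.5 FPKM, a rise of 1.54 ± 0.07 (adjusted p = 5.7e-06). In vWAT siH19, *Snurf* had 39.4, 27.2 and 28.0 FPKM at d0 and 116, 110.5 and 91.3 FPKM at d3, a rise of 1.73 ± 0.16 (adjusted p = 9.5e-05). *Snrpn* had 3.25, 3.203 and 3.81 FPKM and then 12.6, 13.1 and 11.95 FPKM, again with no overlap and with a rise of 1.62 ± 0.08 (adjusted p = 6.6e-06). The sum rose by 1.34 ± 0.12 in vWAT siCtrl (adjusted p = 8.6e-05) and by 1.74 ± 0.14 in vWAT siH19 (adjusted p = 5.8e-05).

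Over the 4 strata of depot and siRNA, the mean day effect on the sum was 1.73, higher at d3 in 4 of 4 strata, with an exact permutation p of 1.25e-05 (two-sided, 160000 assignments within strata), the smallest this design allows, and of 4.17e-05 after adjustment over the 10 such tests run. Summed adipocyte marker FPKM also rose from d0 to d3. In siCtrl they lay at 2940 to 3206 (d0) and 36794 to 38479 (d3) in BAT and at 3911 to 3928 and 18778 to 19756 in vWAT. In siH19 they lay at 1480 to 1995 and 33538 to 35813 in BAT and at 2286 to 2589 and 20760 to 21897 in vWAT. *Fabp4* reached 28419 FPKM, and the other markers did not exceed 3755 FPKM. None of the 5 markers was at 0 in any library, and their part in the result was not tested. In such bulk samples, fewer cells of a type and less RNA per cell cannot be told apart.

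**Figure D2:**
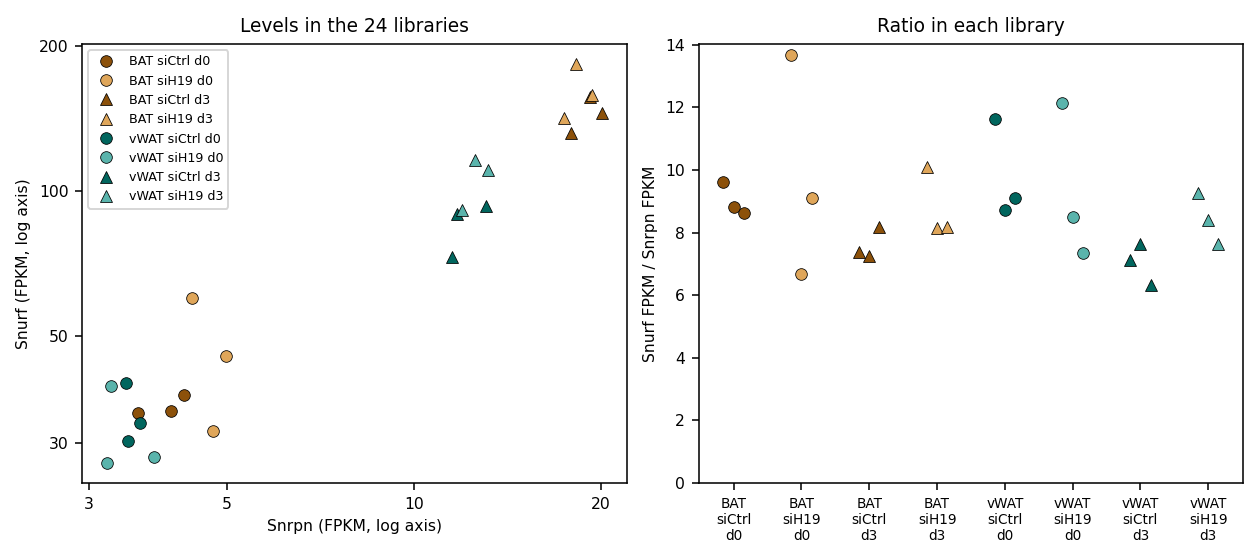
*Snurf* FPKM against *Snrpn* FPKM in the 24 libraries, both axes on a log scale (left), and the ratio of *Snurf* to *Snrpn* FPKM in each library by group (right), with 1 point per library. The d0 libraries (circles) and d3 libraries (triangles) lay apart in both genes, while the ratio stayed between 6.34 and 13.7.

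The split between both genes varied less than their level. The ratio of *Snurf* to *Snrpn* FPKM had a median of 8.45 over the 24 libraries, while the *Snurf* level itself varied 6.76-fold and the *Snrpn* level 6.26-fold. With FPKM multiplied by the annotated transcript length, *Snurf* made up between 41.5% and 60.4% of the sum of both, with a median of 48.6%. This cannot be read as a share of reads, since the lengths that the authors' software used are not given. Over the 24 libraries, the log2 values of both genes had a Pearson r of 0.969, but after subtraction of the group means r was 0.028, so the libraries of 1 group did not share their deviations in both genes. These coefficients describe libraries that share groups and, for these 2 genes, exons. In BAT siH19 at d0, the library with 59.9 FPKM of *Snurf* had the lowest *Snrpn* value of its group, 4.39 FPKM, and the highest ratio of all, 13.7.

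*Ndn* had another pattern. In BAT siCtrl, it was at 24.7, 22.7 and 23.0 FPKM at d0 and at 12.5, 12.01 and 12.8 FPKM at d3. All d3 libraries lay well below all d0 libraries, and the level fell by 0.87 ± 0.06 on the log2 scale (adjusted p = 1.2e-05), to 0.529 of the d0 mean. In BAT siH19, *Ndn* fell from 25.7, 24.2 and 24.8 FPKM to 16.0, 14.8 and 16.0 FPKM, a change of -0.64 ± 0.06 (adjusted p = 7.5e-05). In vWAT siCtrl, *Ndn* had 17.7, 17.5 and 17.6 FPKM at d0 and 18.6, 19.8 and 18.5 FPKM at d3. These vWAT groups did not overlap, with d3 the higher, but the difference of 0.10 ± 0.05 did not pass the test (adjusted p = 0.135). In vWAT siH19, it had 19.6, 17.97 and 19.2 FPKM at d0 and 20.4, 19.8 and 20.0 FPKM at d3, likewise with every d3 library the higher, and the difference was 0.08 ± 0.05 (adjusted p = 0.219). Within vWAT and with both siRNAs combined, the exact permutation test gave a day effect of 0.09 (p = 0.005, the smallest this test within 1 depot allows), and within BAT the effect was -0.75.

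The sum of the precursor markers moved with *Ndn*. The summed FPKM of *Pdgfra*, *Pdgfrb*, *Ly6a* and *Cd34* lay at 668 to 749 in BAT siCtrl at d0 and at 269 to 302 at d3, and at 796 to 813 and 478 to 510 in BAT siH19. In vWAT they were at 481 to 550 (d0) and 651 to 730 (d3) in siCtrl and at 545 to 663 and 697 to 785 in siH19. *Ly6a*, at 239 to 657 FPKM over the 24 libraries, was the largest part of this sum. *Pdgfra*, *Pdgfrb* and *Cd34* did not exceed 119, 116 and 20.1 FPKM. None of the 4 markers was at 0 in any library, and their part in the *Ndn* difference was not tested.

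**Figure D3:**
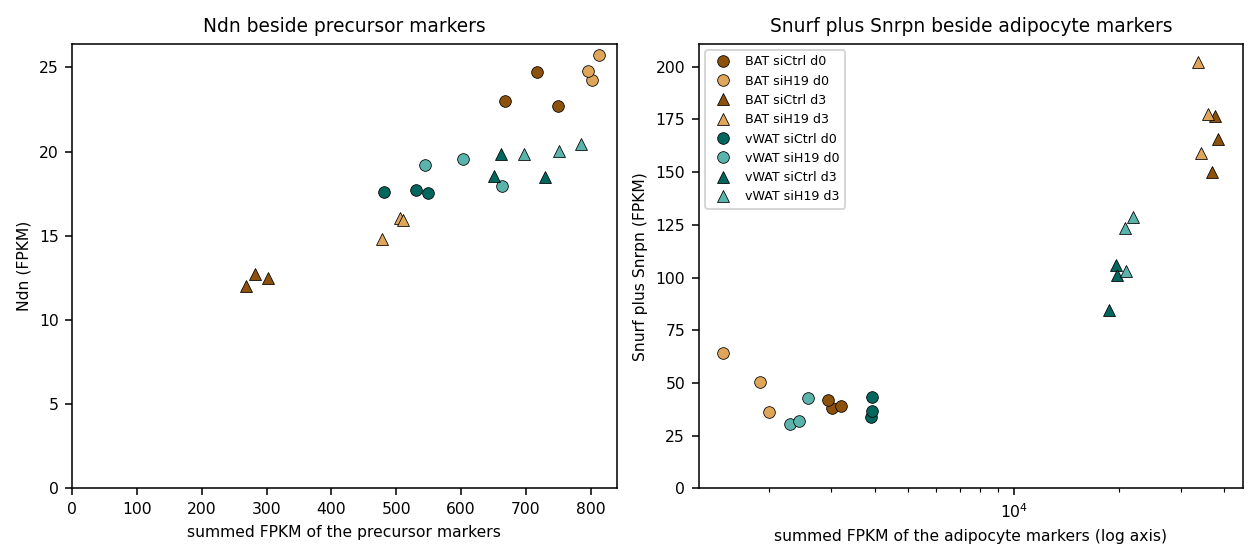
*Ndn* FPKM against the summed FPKM of the precursor markers (left) and summed *Snurf* and *Snrpn* FPKM against the summed FPKM of the adipocyte markers (right, log axis), with 1 point per library, coloured by group. The BAT siCtrl d3 libraries had both the lowest precursor marker sums (269 to 302 FPKM) and the lowest *Ndn*, while *Ndn* was higher in BAT siCtrl at d0 than in vWAT siH19 at d3 at overlapping marker sums (668 to 749 and 697 to 785 FPKM). The d3 libraries were higher than the d0 libraries in both quantities on the right.

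*Ube3a* was at 30.2, 35.4 and 32.1 FPKM in BAT siCtrl at d0 and at 52.2, 58.4 and 42.6 FPKM at d3. The groups did not overlap although the d3 libraries were widely spread, and the rise was 0.63 ± 0.12 (adjusted p = 0.0027). In BAT siH19 it rose from 27.5, 32.6 and 29.0 FPKM to 50.2, 53.8 and 45.6 FPKM, a change of 0.73 ± 0.09 (adjusted p = 2.6e-04). In vWAT siCtrl, *Ube3a* had 26.5, 36.3 and 38.0 FPKM at d0 and 32.9, 30.6 and 38.6 FPKM at d3. These ranges overlapped almost entirely, and the difference was 0.03 ± 0.15 (adjusted p = 0.878). In vWAT siH19, 32.1, 38.6 and 27.8 FPKM at d0 stood against 33.6, 41.6 and 34.1 FPKM at d3, with overlapping groups and a difference of 0.15 ± 0.13 (adjusted p = 0.355).

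Counted over the members, 4 of 4 were called between d0 and d3 in BAT siCtrl, 3 higher and 1 lower, where 65.2% of all genes tested were called, 29.9% higher and 35.3% lower. The same count was 4 of 4 in BAT siH19 (60.6% of all genes), 2 of 4 in vWAT siCtrl (50.3%) and 2 of 4 in vWAT siH19 (52.7%). The d0 and d3 libraries did not overlap for 79.3% and 74.7% of all genes in BAT siCtrl and siH19 and for 71.2% and 71.7% in vWAT siCtrl and siH19, so changes over differentiation were common among the expressed genes of these cultures.

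**Figure D4:**
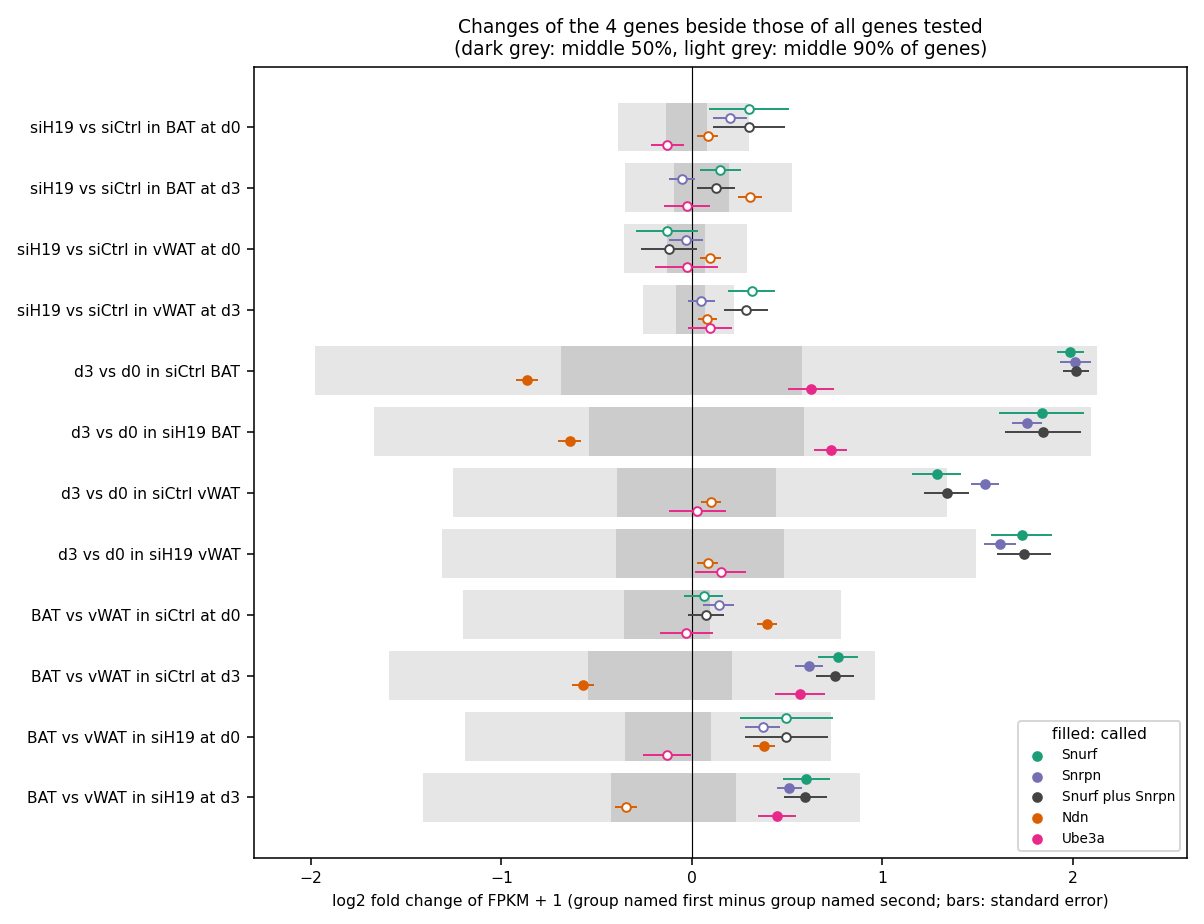
Log2 fold changes on log2(FPKM + 1) with their standard errors for the 4 members and the sum of *Snurf* and *Snrpn*, by comparison, with filled points where the change was called and grey bars for the middle 50% (dark) and 90% (light) of all genes tested. The day effects of *Snurf* and *Snrpn* lay between 1.28 and 2.01 in every group, those of *Ndn* were negative in both BAT groups, and the siH19 effects lay between -0.13 and 0.31, with none called.

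The siH19 comparison called none of the members in either depot or on either day. In limma at d0, 0 of 4 were called in BAT, with 0 of 4 at an unadjusted p under 0.05 and 1.94% of all genes called, and 0 of 4 in vWAT, again with 0 at an unadjusted p under 0.05, where 1.53% of all genes were called. At d3, limma called 0 of 4 in BAT (1 at an unadjusted p under 0.05, with 8.57% of all genes called) and 0 of 4 in vWAT (1 at an unadjusted p under 0.05, with 0.0305% of all genes called). The siH19 and siCtrl libraries did not overlap for 26.7% of all genes in BAT at d0, 37.2% in BAT at d3, 24.5% in vWAT at d0 and 16.2% in vWAT at d3.

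The member that came nearest was *Ndn* in BAT at d3. The 3 siH19 libraries, at 14.8 to 16.0 FPKM, all lay above the 3 siCtrl libraries, at 12.01 to 12.8 FPKM. The difference was 0.31 ± 0.06 with an adjusted p of 0.0221 in limma. This fitted change was below the 1.3-fold minimum, and the ratio of the mean FPKM was 1.26. When each library was left out in turn, the difference was between 0.28 and 0.34 and the adjusted p between 0.0360 and 0.0862. Over all settings, the lowest difference was 0.25. Precursor marker sums were also higher in siH19 than in siCtrl of this comparison, at 478 to 510 against 269 to 302 FPKM, and their part in the difference was not tested. The other siH19 differences of *Ndn* were 0.08 ± 0.05 in BAT at d0 (adjusted p = 0.457), 0.10 ± 0.06 in vWAT at d0 (adjusted p = 0.427) and 0.08 ± 0.05 in vWAT at d3 (adjusted p = 0.648). Each was positive, and in vWAT at d0 the groups did not overlap. Over the 4 strata of depot and day, the mean siH19 effect on *Ndn* was 0.14 (SD over strata 0.11), higher in 4 of 4 strata, with an exact permutation p of 0.0001 (two-sided) and of 0.00025 after adjustment over the 10 such tests. Whether the siH19 effect on *Ndn* at d3 differed between the depots was tested as an interaction and gave 0.23 ± 0.07 (adjusted p = 0.0681).

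For *Snurf*, the siH19 difference was 0.30 ± 0.21 in BAT at d0 (adjusted p = 0.480), 0.15 ± 0.11 in BAT at d3 (adjusted p = 0.390), -0.13 ± 0.16 in vWAT at d0 (adjusted p = 0.723) and 0.31 ± 0.12 in vWAT at d3 (adjusted p = 0.473). The *Snurf* value in BAT at d0 depended on single libraries, at 0.086 without the first and 0.53 without the second siH19 replicate. The groups of the last comparison overlapped by 1 library, since 91.3 FPKM in siH19 lay below 92.9 FPKM in siCtrl. *Snrpn* differed by 0.20 ± 0.09 in BAT at d0 (adjusted p = 0.286), where the groups did not overlap, and by -0.05 to 0.05 in the other comparisons. For the sum, the mean siH19 effect over the strata was 0.15 (exact permutation p = 0.115, adjusted 0.155), and it was 0.043 without the first and 0.23 without the second replicates. *Ube3a* differed by -0.13 to 0.10 in the 4 comparisons, and its mean siH19 effect was -0.02 (exact permutation p = 0.763).

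Between the depots, more members were called at d3 than at d0 under each siRNA, and each of these differences also separates the media and library series. The median over all genes tested was below 0, at -0.13 at d0 and -0.16 at d3 in siCtrl, and median-of-ratios scaling moved it by 0.12 and 0.15 without changing the direction or call of a called member value. At d0 in siCtrl, limma called 1 of 4 members, *Ndn*, against 31.2% of all genes, and it was higher in BAT by 0.39 ± 0.05 (adjusted p = 0.00113). *Snurf* (0.06 ± 0.10), *Snrpn* (0.14 ± 0.08) and *Ube3a* (-0.03 ± 0.14) were not called. At d3 in siCtrl, 4 of 4 members were called, against 48.6% of all genes. *Snurf* was higher in BAT by 0.76 ± 0.11 (adjusted p = 7.5e-04), *Snrpn* by 0.61 ± 0.07 (adjusted p = 3.6e-04) and *Ube3a* by 0.57 ± 0.13 (adjusted p = 0.0085), whereas *Ndn* was lower in BAT, at -0.57 ± 0.06 (adjusted p = 1.6e-04). *Ndn* thus changed its order between the depots from d0 to d3.

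In siH19 the called differences had the same directions. At d0, 1 of 4 members was called, against 30.4% of all genes: *Ndn* was higher in BAT by 0.38 ± 0.06 (adjusted p = 0.00226), a value at the minimum fold. *Snrpn* was higher in BAT by 0.37 ± 0.09 (adjusted p = 0.0176) with no overlap, but just under the minimum fold, and *Snurf* was at 0.50 ± 0.24 (adjusted p = 0.142) with overlapping groups, a value that ran from 0.28 to 0.73 as single libraries were left out. At d3, 3 of 4 were called, against 41.2% of all genes, with *Snurf* higher in BAT by 0.60 ± 0.12 (adjusted p = 0.0056), *Snrpn* by 0.51 ± 0.07 (adjusted p = 7.3e-04) and *Ube3a* by 0.45 ± 0.10 (adjusted p = 0.0086). *Ndn* was at -0.35 ± 0.06 (adjusted p = 0.0021), under the minimum fold. The call of *Ndn* at d0 was lost without the first BAT replicate in siCtrl (0.36), and in siH19 without the first BAT replicate (0.36) or the second vWAT replicate (0.34).

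The difference of the day effect between the depots was tested itself. In siCtrl, 4 of 4 members passed this interaction test, as did 53% of all genes. The rise of *Snurf* was larger in BAT by 0.70 ± 0.16 (adjusted p = 0.0037), that of *Snrpn* by 0.47 ± 0.10 (adjusted p = 0.0025) and that of their sum by 0.68 ± 0.15 (adjusted p = 0.0029). The day effect of *Ndn* was lower in BAT, by -0.97 ± 0.07 (adjusted p = 6.8e-07). For *Ube3a* the interaction was 0.60 ± 0.21 (adjusted p = 0.0354), and it failed the test in 8 of the 12 fits that left out 1 library, at adjusted p values up to 0.0827.

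In siH19, 2 of 4 members passed the same interaction test, against 42.8% of all genes. *Ndn* was at -0.73 ± 0.07 (adjusted p = 1.6e-05) and *Ube3a* at 0.58 ± 0.17 (adjusted p = 0.0203), both of which held in all 12 fits with 1 library left out. *Snurf* (0.10 ± 0.30, adjusted p = 0.813) and *Snrpn* (0.14 ± 0.11, adjusted p = 0.316) did not pass. Whether the day effect differed between siH19 and siCtrl was a separate test, which limma passed for 0 of 4 members in BAT (2 at an unadjusted p under 0.05, with 9.06% of all genes passing) and 0 of 4 in vWAT (0 at an unadjusted p under 0.05, with 1.73% of all genes). In BAT, this difference was -0.25 ± 0.10 for *Snrpn* (adjusted p = 0.168) and 0.22 ± 0.07 for *Ndn* (adjusted p = 0.0914). The siH19 effect itself passed the depot interaction for 0 of 4 members at d0 (0 at an unadjusted p under 0.05, 1.02% of all genes) and 0 of 4 at d3 (1 at an unadjusted p under 0.05, 10.5% of all genes).

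The order of the group means follows from these values. *Snurf* and *Snrpn* were highest in both BAT groups at d3, then in both vWAT groups at d3 and lowest in the 4 groups at d0, and neighbouring groups that differed only in siRNA overlapped except for *Snrpn* in BAT at d0. *Ndn* was highest in BAT at d0 (24.9 ± 0.746 in siH19 and 23.5 ± 1.06 FPKM in siCtrl, overlapping), lay between 17.6 and 20.1 FPKM in the vWAT groups, was lower in BAT siH19 at d3 at 15.6 ± 0.699 FPKM and lowest in BAT siCtrl at d3 at 12.4 ± 0.383 FPKM. *Ube3a* was highest in BAT at d3 (51.1 ± 7.95 in siCtrl and 49.8 ± 4.09 FPKM in siH19), and the other 6 groups, at 29.7 to 36.4 FPKM, overlapped with their neighbours.

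**Figure D5:**
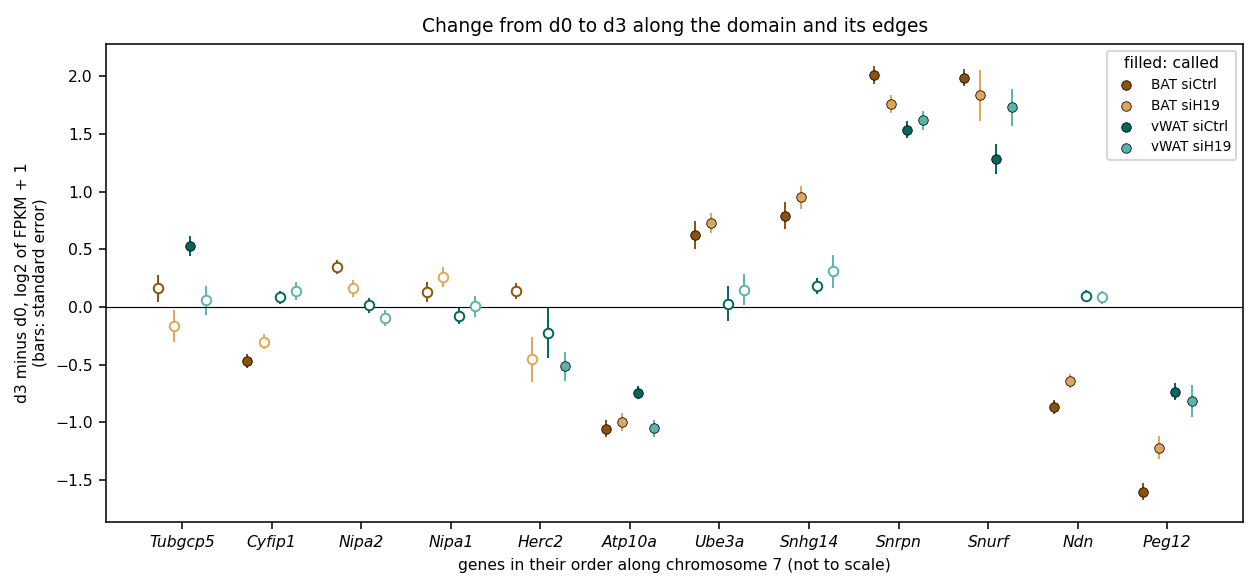
Log2 fold change from d0 to d3 for the genes of the domain and its edges that reached the filter in all 4 comparisons, in their order along the chromosome, by depot and siRNA. *Peg12* and *Atp10a* were lower at d3 in all 4 comparisons, and *Snurf* and *Snrpn* higher in all 4. Points are changes on log2(FPKM + 1) with their standard errors, filled where called.

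Of the 20 other genes of the domain and its edges on the list, 8 or 9 reached the filter, depending on the comparison. From d0 to d3, 1 was called higher and 3 lower in BAT under each siRNA, where 65.2% (siCtrl) and 60.6% (siH19) of all genes were called. In vWAT siCtrl 1 was higher and 2 lower (50.3% of all genes called), and in vWAT siH19 0 higher and 3 lower (52.7%). *Peg12*, a paternally expressed gene beside *Ndn*, fell in all 4 comparisons. Its mean went from 6.16 to 1.36 FPKM in BAT siCtrl (-1.60 ± 0.07) and from 5.96 to 1.99 FPKM in BAT siH19 (-1.22 ± 0.10), against 4.34 to 2.21 FPKM (-0.73 ± 0.08) and 4.29 to 2.04 FPKM (-0.81 ± 0.14) in vWAT. Its fall was larger in BAT in siCtrl (interaction -0.87 ± 0.09). *Atp10a*, a phospholipid flippase gene next to *Ube3a*, also fell in all 4, by 1.06, 1.00, 0.74 and 1.05 on the log2 scale.

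*Snhg14*, the antisense RNA of *Ube3a*, rose in BAT as *Ube3a* did, from 5.50 to 10.3 FPKM in siCtrl (0.79 ± 0.12) and from 5.27 to 11.1 FPKM in siH19 (0.95 ± 0.10). In vWAT it went from 5.81 to 6.73 FPKM (adjusted p = 0.0531) and from 5.84 to 7.57 FPKM (adjusted p = 0.102). The day effect was larger in BAT by 0.61 in siCtrl (adjusted p = 0.0029) and by 0.64 in siH19 (adjusted p = 0.0159). The sources used here do not state that strand was used in the counting, so reads of *Ube3a* and *Snhg14* in the shared 3613 bases cannot be told apart. Among the remaining genes, *Cyfip1* fell in BAT siCtrl (-0.47) and *Herc2*, another HECT ligase gene, in vWAT siH19 (-0.51), while *Tubgcp5* rose in vWAT siCtrl (0.53), and *Nipa1* and *Nipa2* were called in none of these.

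*Magel2* and *Mkrn3*, the paternally expressed neighbours of *Ndn*, did not exceed 0.0538 and 0.724 FPKM in any library and were not tested. *Gabra5*, *Gabrg3* and *Oca2* likewise stayed under the filter, and the rows of *Snord64*, *Snord107* and the *Snord116* cluster, small nucleolar RNA genes of the domain, were listed at 0 in all libraries. In the siH19 comparisons, limma called none of the list in either depot or on either day. *Peg12* in BAT at d3 was at 0.34 ± 0.10 (adjusted p = 0.0639).

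The other lists took up what the members' proteins work with. Of 16 genes for Sm ring and U1 or U2 proteins, the particles that SmN joins, 1 rose and 5 fell from d0 to d3 in BAT siCtrl, with a median of -0.31 against -0.10 for all genes. The largest changes there were those of *Smn1* (-1.06), which assembles the Sm ring, and of *Snrpa1* (-0.95), a U2 protein. In vWAT siCtrl, 1 rose and 4 fell, led by *Snrpa1* (-0.86) and *Snrpd1* (-0.61). In siH19 cells, 0 rose and 4 fell in BAT and 1 rose and 4 fell in vWAT. In BAT siCtrl the other 10 of the 16 were not called, while 65.2% of all genes were called and 35.3% were lower. The share of all genes called was 50.3% in vWAT siCtrl, 60.6% in BAT siH19 and 52.7% in vWAT siH19. The ubiquitous *Snrpn* paralogue *Snrpb*, named here although outside the rule for named genes, was at -0.32 in BAT siCtrl and -0.32 in vWAT siCtrl and was not called.

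Of 14 MAGE and SMC5/6 genes, the family of necdin and the complex with which MAGE proteins work, with the necdin-binding factors *E2f1* and *E2f4* counted among them, 11 were tested. In BAT siCtrl, 0 rose and 7 fell from d0 to d3, with a median of -0.64 against -0.10 for all genes. *Maged2* (-1.58) and *Maged1* (-1.17), both X-linked MAGE genes, were the largest. In BAT siH19, 0 rose and 5 fell, led again by *Maged2* (-1.30) and *Maged1* (-0.88). In vWAT, 1 rose and 1 fell in siCtrl, *Nsmce4a* (0.40) and *Smc5* (-0.45), and 1 rose and 2 fell in siH19. The depot by day interaction in siCtrl was passed by 9 of the 11, all lower in BAT as for *Ndn*, where 53% of all genes passed and 28.1% were lower. The 7 of 11 called over differentiation in BAT siCtrl stand against 65.2% of all genes. The share of all genes was 60.6% in BAT siH19, 50.3% in vWAT siCtrl and 52.7% in vWAT siH19. For siH19 in BAT at d3, the median of the list was 0.27 against 0.05 for all genes, with 0 of 11 called. The depot by siRNA interaction at d3 was passed by 4 of 11, all positive (10.5% of all genes): *Nsmce1* (0.53), *Mageh1* (0.53), *Maged1* (0.32) and *Smc6* (0.32). The day by siRNA interaction in BAT was passed by 3 of 11, again all positive (9.06% of all genes): *Smc6* (0.41), *E2f1* (0.39) and *Maged1* (0.28). These genes are named after their values were seen. Of all genes passing, 66.6% were positive in the depot by siRNA test at d3 and 86.0% in the day by siRNA test in BAT. After median-of-ratios scaling, these shares were 44.4% and 58.2%. The list is a description, and no set test was run.

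Of 18 genes for *Ube3a* partners and related HECT ligases, 17 were tested over differentiation. In BAT siCtrl 6 rose and 6 fell, where 65.2% of all genes were called, and in BAT siH19 7 rose and 5 fell (60.6%). In vWAT siCtrl 3 rose and 7 fell (50.3%), and in vWAT siH19 4 rose and 9 fell (52.7%). Within the list, *Arc*, an immediate early gene, had the largest change in each comparison, between -2.27 and -3.58. It was followed by the proteasome gene *Psmd4* in BAT (1.32 and 1.19) and by the HECT ligase gene *Smurf2* in vWAT (-0.93 and -0.88). In the 4 comparisons of siH19 with siCtrl, no gene of these 3 lists was called except *Arc* in BAT at d3 (0.58, adjusted p = 0.0462).

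The genes whose log2 values over the 24 libraries were most like those of each member were ranked by Pearson r among 11546 genes. *Snrpn* was most like *Hsd17b12* (r = 0.992), a gene of fatty acid elongation, followed by *Cib2*, *Elovl4*, *Mrpl44* and *Cox6a1*. *Snurf* was most like *Kazald1* (r = 0.970), then *Nudt2*, *Dcbld1*, *Emc2* and *Triap1*. *Ndn* was most like *Vamp5* (r = 0.982), then *Vgll3*, *Pdgfd*, *Tmem123* and *Cyp1b1*, and *Ube3a* was most like *Psme4* (r = 0.883), a proteasome activator gene, then its antisense *Snhg14* (r = 0.882), *Arhgef12*, *Trappc8* and *Map3k5*. The 24 libraries share groups and depot series, so these coefficients mostly reflect differences between the 8 groups. Among the members, *Ndn* and *Ube3a* had an r of -0.794 over all libraries and of -0.668 after subtraction of the group means.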

How the data were processed

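RNA was sequenced as poly-A libraries by the authors, and the deposited table holds 1 value per gene and library that the table does not name. The study's methods and the submitters' processing notes (TopHat2 2.0.10, Cufflinks 2.2.1, GRCm38.p5) and the values themselves point to FPKM, normalized by the authors for transcript length and mapped fragments. The labels give paired-end directional libraries and the study's methods single-end ones, and the use of strand in counting is not given in the sources used here. Cufflinks divides reads between overlapping genes by estimation, so the split between *Snurf* and *Snrpn* depends on it, and their FPKM were also summed.

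Linear models with trended variance (limma 3.58.1, R 4.3.3) were run on log2(FPKM + 1) over the 6 libraries of each comparison or the 12 of each interaction, for genes with FPKM of at least 1 in at least 3 libraries. P-values were adjusted by Benjamini-Hochberg over all genes tested. A call needed an adjusted p under 0.05 and, except for interactions, a fitted change of at least 1.3-fold. Fold changes on this scale understate those of low genes. Mean effects over strata were tested by exact permutation within strata. The scripts were tested on simulated data.

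Groups came from the labels of the samples. The members and gene lists were chosen with earlier results of these data known. The text names the 4 members, the genes of the domain list that reached the filter (1 is counted but not reported here), the 2 largest called members of each other list per siH19 or day comparison, *H19* and the 5 genes most like each member by Pearson r. Pseudocount, filter, scaling, minimum fold, libraries in the fit, replicate block and left-out libraries were varied, and a length-weighted sum of *Snurf* and *Snrpn* was added after seeing the data. With FPKM alone, no counts model was used and no counting interval can be given.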

Additional observations from a re-analysis of the deposited data

Results flagged for a closer look

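The effect of day differed between the depots for 7 values, the sum of *Snurf* and *Snrpn* among them, each by the interaction test in limma. Of all genes, 53% passed this test in siCtrl and 42.8% in siH19. In siCtrl, the log2 change from d0 to d3 in BAT minus that in vWAT was 0.70 ± 0.16 (SE) for *Snurf*, 0.47 ± 0.10 for *Snrpn*, 0.68 ± 0.15 for their sum, -0.97 ± 0.07 for *Ndn* and 0.60 ± 0.21 for *Ube3a*. In siH19, it was -0.73 ± 0.07 for *Ndn* and 0.58 ± 0.17 for *Ube3a*. *Snurf* and *Snrpn* rose in both depots and more in BAT siCtrl, whereas *Ndn* fell in BAT and was slightly higher at d3 in vWAT. Depot, medium and library series cannot be told apart in these values. The *Ube3a* value in siCtrl failed the test in 8 of the 12 fits with 1 library left out.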

How the results depend on the processing

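Of 450 recomputed values of the members and the sum that had been called, 438 kept direction and call, 12 lost the call and 0 reversed, and of 798 uncalled values, 17 gained a call and 31 changed sign. The causes were not tested. At d3, siH19 against siCtrl in BAT called 1 member, *Ndn*, with no minimum fold, where 2023 of 12500 genes tested were called. BAT against vWAT in siH19 at d0 called 2 members under a pseudocount of 0.1, median-of-ratios scaling, all 24 libraries in 1 fit, no minimum fold or the replicate block, and 0 to 2 when a library was left out, and its length-weighted sum passed at 0.44 (adjusted p = 0.0241). BAT against vWAT in siCtrl at d0 called 0 to 1 members when a library was left out. Before these settings were varied, BAT against vWAT at d0 called 30.4% of all genes in siH19 and 31.2% in siCtrl. With all 24 libraries in 1 fit, 1 member, *Ndn*, passed the depot by siRNA test at d3 (0 to 1 with a library left out; 0.26 and adjusted p = 0.0473 without the second BAT siH19 replicate) and 1, *Ndn* again, the day by siRNA test in BAT. Over all settings in limma, *Ndn* ran from 0.15 to 0.26 for depot by siRNA at d3, at adjusted p values from 0.0253 to 0.184. For day by siRNA in BAT it ran from 0.11 to 0.26, at adjusted p values from 0.0257 to 0.425. The *Ube3a* depot by day interaction in siCtrl also failed with no filter (0.60, adjusted p = 0.0726). Without BAT, the mean siH19 effect on *Ube3a* was 0.034, the mean day effect on *Ndn* 0.091 and that on *Ube3a* 0.090 (p = 0.47, exact permutation test), and with 1 replicate number left out the first was -0.069 to 0.050 and the second -0.34 to -0.32 (p = 0.0556, exact permutation test). With all libraries, this mean day effect on *Ndn* was -0.33 (p = 0.005, exact permutation test). It averages a fall in BAT and a small rise in vWAT. With such opposite directions, the p depends on the number of assignments, so its rise with fewer libraries decides nothing.

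Signs of uncalled *Ube3a* values changed under median-of-ratios scaling, to 0.0089 for siH19 in vWAT at d0, 0.10 for BAT against vWAT in siCtrl at d0 and -0.012 for day by siRNA in BAT. With a library left out, uncalled *Ube3a* values ranged from -0.15 to 0.075 for siH19 in BAT at d3, -0.18 to 0.082 in vWAT at d0, -0.0013 to 0.19 in vWAT at d3, -0.13 to 0.12 for day in vWAT siCtrl, -0.19 to 0.065 for BAT against vWAT in siCtrl at d0, -0.21 to 0.055 for depot by siRNA at d0 and -0.019 to 0.20 for day by siRNA in BAT. The uncalled *Snrpn* siH19 value in vWAT at d0 ranged from -0.094 to 0.0034. *Snurf* and the sum ranged from -0.024 to 0.17 and -0.0070 to 0.17 for BAT against vWAT in siCtrl at d0, from -0.13 to 0.32 and -0.11 to 0.29 for depot by day in siH19, and from -0.39 to 0.063 and -0.38 to 0.018 for day by siRNA in BAT. *Ndn* ranged from -0.049 to 0.021 for depot by siRNA at d0 and from -0.050 to 0.016 for day by siRNA in vWAT.

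Over all genes tested, libraries of the same replicate number did not deviate together, as no pair reached a correlation of 0.1. The numbers were therefore not taken to pair the samples. Single members could differ from this. *Snurf* was highest in the first replicate of every vWAT and BAT siH19 group, though not in BAT siCtrl. *Ube3a* was highest in the second replicate of every BAT and vWAT siH19 group, though not in vWAT siCtrl. Whether the members share a replicate effect was not tested. The replicate block moved the genes called for siH19 from 245 to 2 in BAT at d0, from 200 to 2 in vWAT at d0 and from 4 to 0 in vWAT at d3, and those passing depot by siRNA at d0 from 140 to 81, and of the members it changed only the call of *Snurf* in BAT against vWAT in siH19 at d0 (0.50, adjusted p = 0.0224). The counts of genes called for siH19 in BAT at d0, vWAT at d0 and vWAT at d3 and of depot by siRNA at d0 were 518, 385, 20 and 305 with all 24 libraries in 1 fit, and 35 and 65 for the first pair and 85 for the last with no filter. With no minimum fold, 395 and 2023 genes were called for siH19 in BAT at d0 and d3, and 6386 instead of 4096 for BAT against vWAT in siCtrl at d0. Leaving out 1 library gave 4 to 74 genes called for siH19 in BAT at d0, 631 to 916 in BAT at d3, 37 to 122 in vWAT at d0 and 1 to 5 in vWAT at d3 (245, 1071, 200 and 4 with all libraries), 35 to 110 instead of 140 for depot by siRNA at d0, 889 to 1432 instead of 1451 at d3, 801 to 1091 instead of 1230 for day by siRNA in BAT and 127 to 241 instead of 241 for day by siRNA in vWAT. The depth behind the FPKM is unknown, so no detection limit can be given, and a gene listed at 0 is not shown to be absent.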

Other observations

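RefSeq places 3 further *Snrpn* starts upstream of the one shared with *Snurf*, and the promoter window of each also held GCATGCG. Long stretches of these 3 windows were alike, so they do not count as separate matches. GCATGCG was in 3.57% of all windows and was looked for after the sequences had been seen. *Gm38393*, a gene model on the same strand, has exons that hold every base of Snurf-201, so reads of *Snurf* could also be assigned to it. It stayed between 0.16 and 0.84 FPKM in its group means.

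Markers of other cell types were present at levels that differed by depot. Skeletal muscle markers summed to 14.1 to 40.8 FPKM in the BAT libraries and to at most 0.107 FPKM in vWAT, and mesothelial markers to 35.8 to 122 FPKM in vWAT and to at most 0.788 FPKM in BAT. Macrophage markers ranged from 78.4 to 581 FPKM over the 24 libraries and endothelial markers from 2.44 to 10.2 FPKM. The summed brown adipocyte markers were at 467 to 538 FPKM in BAT siCtrl at d3, at 290 to 320 in BAT siH19 and at 117 to 136 in vWAT, and at d0 did not exceed 2.04 FPKM. At d3 this sum was mostly *Elovl3*, which reached 491 FPKM. *Ucp1*, at 0 in 15 libraries, *Cidea*, at 0 in 10, and *Ppargc1a* did not exceed 16.3, 21.6 and 15.8 FPKM. The part of these cells in the members' values was not tested.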
